A study of Mus musculus with 4 samples.

Results

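The genes described here carry, store, release and make heme and iron, and their RNA was measured in the livers of 4 mice on a Western diet plus sugar water (WDSW). They are Hpx, Hp, Hmox1, Trf, Tfrc, Fth1, Ftl1, Hamp, Slc40a1 and Alas1. All 10 are among the 46603 Ensembl genes counted and all 10 are among the 13001 genes that passed the filter on low counts. The set of 10 was put together because the level of Hpx was strongly lower in one group of mice. Their group differences are therefore given as a description. How many members passed the thresholds used for all genes is stated once, beside the share of all genes, and is not evidence about the set.

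The question of the experiment was how the liver transcriptome of mice meant to lack the RNA binding protein HuR in hepatocytes differed from that of control mice. All 4 mice were male, carried the HuRflox/flox allele on C57BL/6 J, and were fed for 4 weeks a diet with 42% of its kcal from fat and 0.1% cholesterol, with fructose at 23.1 g/L and glucose at 18.9 g/L to drink. Mice 1 and 2 (control) received AAV8-TBGP-GFP, and mice 3 and 4 (HuR hKO) received AAV8-TBGP-Cre, in which the thyroxine-binding globulin promoter drives Cre in hepatocytes, so that other liver cells keep the gene. The labels give 1 library of total liver RNA for each mouse and call the mice age-matched, with no age stated.

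The libraries held between 13032095 and 19715577 counts on genes, with the largest in mouse 4. Within each group the counts of the 2 mice differed by more than sampling noise (chi-square per degree of freedom of 23.0 and 26.4), so each mouse was 1 replicate and n = 2 in each group. Levels are CPM, the counts scaled to library sizes with edgeR's TMM factors, and a log2 fold change is the level in livers labelled HuR hKO minus that in control livers. Elavl1, which encodes HuR, stood at 28.4 and 25.9 CPM in control mice 1 and 2 and at 37.7 and 34.4 CPM in mice 3 and 4. The targeted gene was thus higher, not lower, in both libraries that carry the label HuR hKO (log2 fold change 0.41, SE 0.14). Every direction given here rests on that label. A count over the whole gene also takes in reads from exons that Cre does not remove, and which exons these are is not given in the sources used here. The reason for the higher level of Elavl1 was not tested.

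Free heme and free iron are toxic, so both travel in blood bound to proteins that the liver makes. Hemopexin takes up free heme, haptoglobin takes up hemoglobin from broken red cells, and transferrin takes up iron. Each complex enters cells through a receptor. Inside cells heme oxygenase opens the heme ring and releases the iron, ferritin stores it, and ferroportin is the way out, which the hormone hepcidin closes. When a cell is short of iron, the iron regulatory proteins bind a short hairpin in some of these mRNAs. Binding near the 5′ end of an mRNA blocks its translation, and binding in the 3′ UTR of the transferrin receptor mRNA protects it from decay.

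These hairpins, the iron-responsive elements, are shown because they mark which of the 10 mRNAs carry that switch. The GENCODE M21 transcripts (GRCm38) were searched for a C, any 5 bases, the loop CAGTGN and 5 bases that pair with the first 5. Here N was A, C or T, and G with T was accepted as a pair. Each line gives 27 bases 5′ to 3′ with the 6 loop bases in capitals.
Tfrc loop 1: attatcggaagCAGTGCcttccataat
Tfrc loop 2: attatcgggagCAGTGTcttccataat
Tfrc loop 3: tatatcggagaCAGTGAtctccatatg
Tfrc loop 4: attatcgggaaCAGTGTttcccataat
Fth1 loop 1: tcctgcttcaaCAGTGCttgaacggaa
Ftl1 loop 1: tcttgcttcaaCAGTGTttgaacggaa
Slc40a1 loop 1: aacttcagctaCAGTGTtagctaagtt

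The first 4 loops lie in the 3′ UTR of Tfrc on the plus strand of chromosome 16, at chr16:32631220-32631246, chr16:32631599-32631625, chr16:32631664-32631690 and chr16:32631711-32631737. The other 3 lie in 5′ UTRs, at chr19:9982733-9982759 on the plus strand (Fth1), chr7:45459780-45459806 on the minus strand (Ftl1) and chr1:45925466-45925492 on the minus strand (Slc40a1). So 4 of the 10 genes held a loop of this form, against 77 of 12005 transcripts of tested genes (0.641%), 15 of them in a 5′ UTR and 62 in a 3′ UTR. The search is strict and a match is a description of the letters. The 4 genes are known carriers of the element, and the counts measure RNA, not translation.

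Hpx encodes hemopexin, a hepatocyte plasma protein (chr7:105591613-105600137, minus strand, GRCm38). Its level was 2253 CPM in mouse 1 and 2195 CPM in mouse 2, against 917 CPM in mouse 3 and 752 CPM in mouse 4. Both livers labelled HuR hKO stood below both controls, and the groups were far apart compared with the gap between mice of one group. The mean was 2224 ± 41.0 CPM (SD, n = 2) in control and 834 ± 117 CPM (SD, n = 2) in livers labelled HuR hKO, so control was 2.67 times as high, with a log2 fold change of -1.41 (SE 0.17). These values rest on 29941, 29404, 13147 and 14157 counts in mice 1 to 4, so counting error is small beside the spread between mice. In bulk liver, fewer cells of a type and less RNA per cell cannot be told apart.

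Ratios of counts within a library do not use the scaling between libraries. Per count of Hp, there were 1.03 and 1.08 counts of Hpx in mice 1 and 2, and 0.34 and 0.25 in mice 3 and 4. Per count of Alb (albumin), there were 0.0518 and 0.0536 counts in control and 0.0221 and 0.0166 in livers labelled HuR hKO. A ratio shows unequal change of 2 genes, not which of them changed. The summed level of 8 hepatocyte markers lay between 64454 and 66482 CPM in control and between 62435 and 70685 CPM in livers labelled HuR hKO, so the groups overlapped in this sum. Alb is 1 of the 8, and genes with high levels weigh most in a sum. Of the 8, 4 were fitted higher and 4 lower, beside 50.3% of all genes fitted higher.

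Hp encodes haptoglobin, which is secreted by the same cells and is, like hemopexin, a plasma protein of the acute phase (chr8:109575128-109579172, minus strand). It went the other way, with 2194 and 2042 CPM in mice 1 and 2 and 2686 and 3006 CPM in mice 3 and 4. Both livers labelled HuR hKO were above both controls, at a mean of 2846 ± 227 CPM against 2118 ± 108 CPM (SD, n = 2) and a log2 fold change of 0.43 (SE 0.17). The hemoglobin carrier and the heme carrier thus had nearly equal counts in control livers, while Hp held the larger count in both others.

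**Figure D1:**
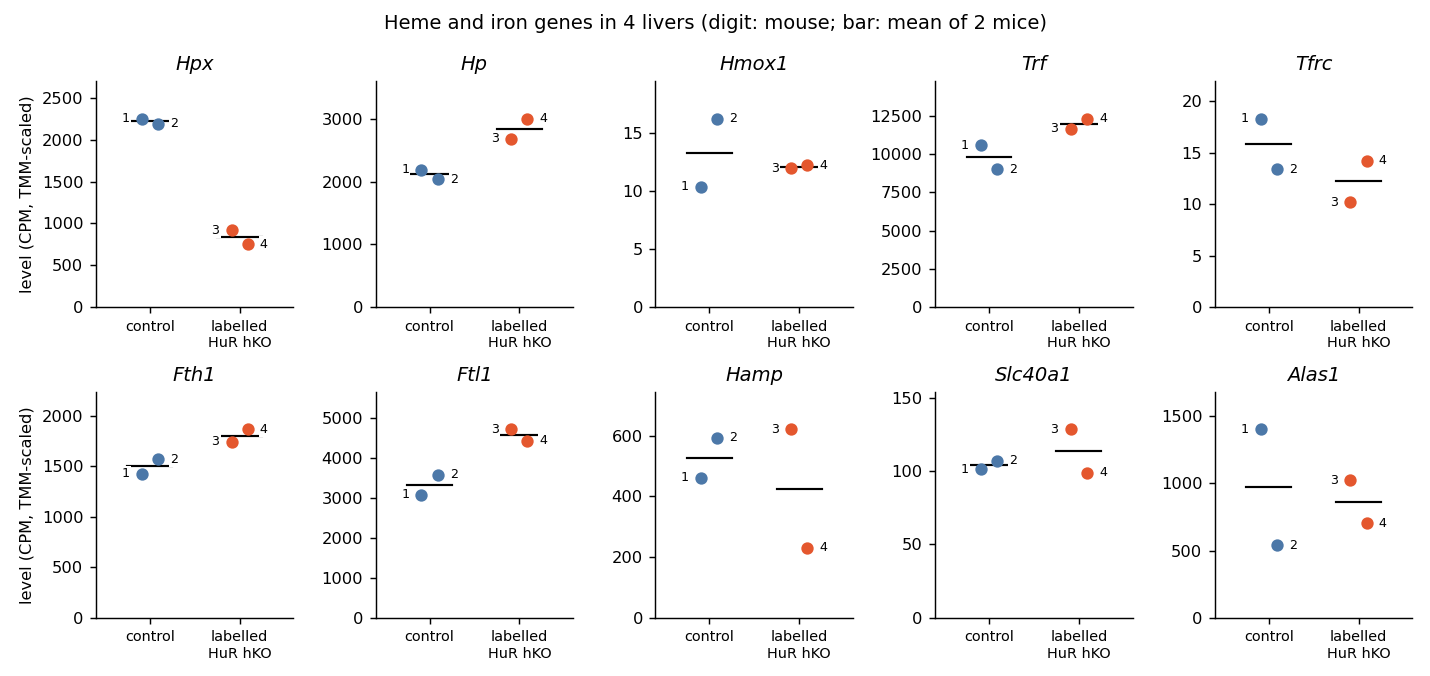
Level of each of the 10 genes (y axis, CPM on TMM-scaled library sizes, from 0) in control mice 1 and 2 and in mice 3 and 4 labelled HuR hKO; each point is 1 mouse and each bar the mean of 2 mice. Hpx is lower in mice 3 and 4 (917 and 752 CPM) than in mice 1 and 2 (2253 and 2195 CPM), Hp, Trf, Fth1 and Ftl1 are higher in both, and the groups overlap for the other 5.

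Trf encodes transferrin, the iron carrier of plasma (chr9:103204001-103230444, minus strand), and was the most abundant of the 10. It stood at 10578 and 9005 CPM in mice 1 and 2 and at 11651 and 12309 CPM in mice 3 and 4. The groups did not overlap, but the gap between the 2 control mice was larger than that between mice 1 and 3, and the log2 fold change was 0.29 (SE 0.20). Gm20425, annotated on the same strand, shares 2108 exon bases with Trf, and its counts were between 0.0895% and 0.159% of those of Trf in every library.

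Tfrc encodes transferrin receptor 1, which brings iron-loaded transferrin into cells (chr16:32608920-32632794, plus strand), and carries the 4 loops in its 3′ UTR. Its level was 18.3 and 13.4 CPM in mice 1 and 2 and 10.2 and 14.2 CPM in mice 3 and 4. Mouse 4 lay between the 2 controls, so the groups overlapped (log2 fold change -0.37, SE 0.22). The values rest on 146 to 268 counts a library, and the mice differed 1.37-fold within control and 1.40-fold within livers labelled HuR hKO. With mouse 1 left out the log2 fold change was -0.14, and with mouse 4 left out it was -0.63.

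Fth1 and Ftl1 encode the heavy and the light chain of ferritin, the iron store (chr19:9980598-9985098, plus strand, and chr7:45457944-45459884, minus strand). Fth1 stood at 1427 and 1571 CPM in mice 1 and 2 and at 1742 and 1866 CPM in mice 3 and 4 (log2 fold change 0.27, SE 0.16). Ftl1 stood at 3087 and 3580 CPM in mice 1 and 2 and at 4721 and 4433 CPM in mice 3 and 4 (log2 fold change 0.46, SE 0.18). Both chains were higher in both livers labelled HuR hKO. The counts of Ftl1 per count of Fth1 were 2.16 and 2.28 in control and 2.71 and 2.38 in livers labelled HuR hKO, so the light chain held the larger share of counts in all 4 livers. Ftl1-ps1, a copy of Ftl1 named as a pseudogene but annotated as protein-coding, held between 1.40% and 1.50% as many counts as Ftl1. How reads that match both were shared out is not given in the sources used here.

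Slc40a1 encodes ferroportin, the iron exporter (chr1:45908068-45926523, minus strand). It stood at 101 and 107 CPM in mice 1 and 2 and at 129 and 98.9 CPM in mice 3 and 4. Mouse 3 had the highest and mouse 4 the lowest value of the 4, and the log2 fold change of 0.12 (SE 0.15) became -0.09 without mouse 3 and 0.30 without mouse 4.

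Hamp encodes hepcidin, the hormone from hepatocytes that closes ferroportin (chr7:30942368-30944032, minus strand). Its level was 462 and 593 CPM in mice 1 and 2, 621 CPM in mouse 3 and 231 CPM in mouse 4. Mouse 3 was the highest and mouse 4 the lowest of all, 2.69-fold apart within one group, and among the 7560 tested genes with a mean of at least 10 CPM, 0.304% differed as much between these mice. The log2 fold change of -0.31 (SE 0.38) was -1.21 without mouse 3 and 0.24 without mouse 4, so mouse 4 set its sign. Hamp2, a close copy of Hamp next to it, went the other way in mouse 4, with 21.5 and 43.8 CPM in mice 1 and 2 and 47.6 and 65.9 CPM in mice 3 and 4. Counts of Hamp per count of Hamp2 were 21.5, 13.5, 13.1 and 3.51 in mice 1 to 4. The 2 genes are similar in sequence, and the division of reads between them depends on a counting step that the files do not show.

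Hmox1 encodes heme oxygenase 1, the inducible enzyme that breaks heme down (chr8:75093621-75100589, plus strand). Its level was 10.4 and 16.3 CPM in mice 1 and 2 and 12.0 and 12.3 CPM in mice 3 and 4, from 138 to 231 counts. Both livers labelled HuR hKO lay between the controls, which differed 1.57-fold from each other. The log2 fold change of -0.14 (SE 0.22) was -0.44 without mouse 1 and 0.23 without mouse 2.

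Alas1 encodes the first and rate-limiting enzyme of heme synthesis in liver (chr9:106233455-106248654, minus strand). It stood at 1403 CPM in mouse 1 and 541 CPM in mouse 2, and at 1024 CPM in mouse 3 and 705 CPM in mouse 4. The controls were the highest and the lowest of the 4, 2.59-fold apart, and 0.45% of the 7560 genes differed as much between the 2 control mice. Without mouse 1 the log2 fold change of -0.17 (SE 0.39) was 0.66, without mouse 2 it was -0.70, without mouse 3 it was -0.48 and without mouse 4 it was 0.08. The direction of the group difference in Alas1 thus depended on which mouse was left out.

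**Figure D2:**
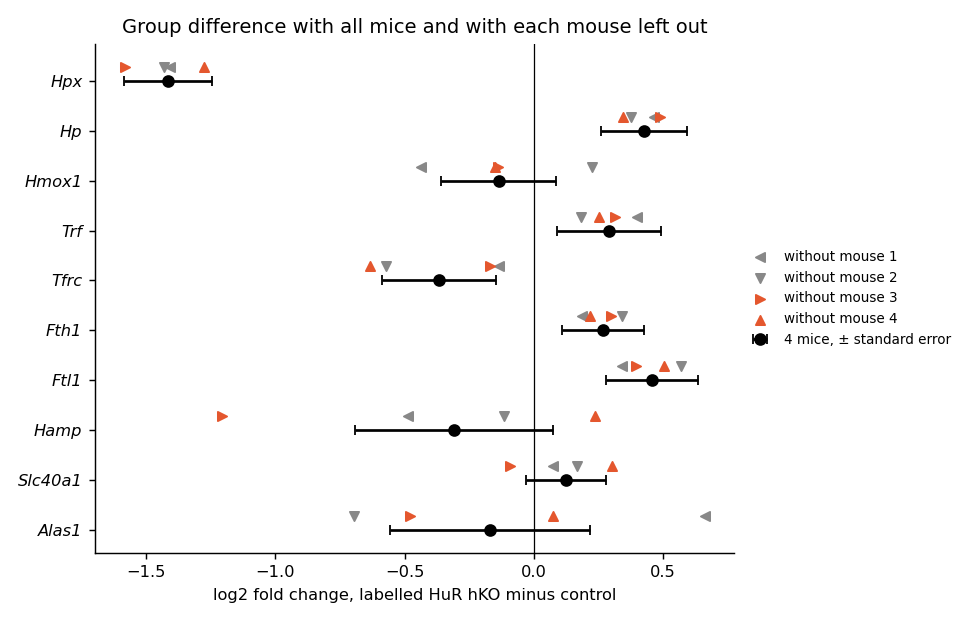
Log2 fold change of each gene (x axis, labelled HuR hKO minus control) with all 4 mice (black points) and with each mouse left out. Bars are ± standard error derived from edgeR's test. Triangles mark the mouse left out, grey for a control mouse and orange for a mouse labelled HuR hKO. Hpx stays between -1.58 and -1.28, and Hmox1, Hamp, Slc40a1 and Alas1 lie on both sides of 0.

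Set against all genes, 1 of the 10 genes passed the threshold of a 1.8-fold change with an unadjusted p-value under 0.05 in edgeR's quasi-likelihood test, which was Hpx, lower. Without mouse 3 the log2 fold change was -1.58 for Hpx and -1.21 for Hamp. With all 4 mice, 0.915% of all genes tested passed as lower, 1.21% as higher and 2.12% in either direction. No member had an adjusted p-value under 0.05 in that test (0.0231% of all genes did), while 3 had an unadjusted p-value under 0.05 (Hpx lower, Hp and Ftl1 higher), as did 7.43% of all genes (4.04% higher and 3.39% lower). After adjustment the DESeq2 Wald test called 1 member, Hpx, beside 0.654% of all genes, and limma-voom called 0, beside 0.0154% of all genes. In 5 of the 10 the groups did not overlap, 4 higher and 1 lower, and the same held for 38.1% of all genes, 19.3% higher and 18.8% lower. Since the members were chosen on this contrast, nothing is read from these counts. The fitted level was higher in 5 members and lower in 5, with a median log2 fold change of -0.0054, beside 50.3% of all genes fitted higher and a median of 0.0020.

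**Figure D3:**
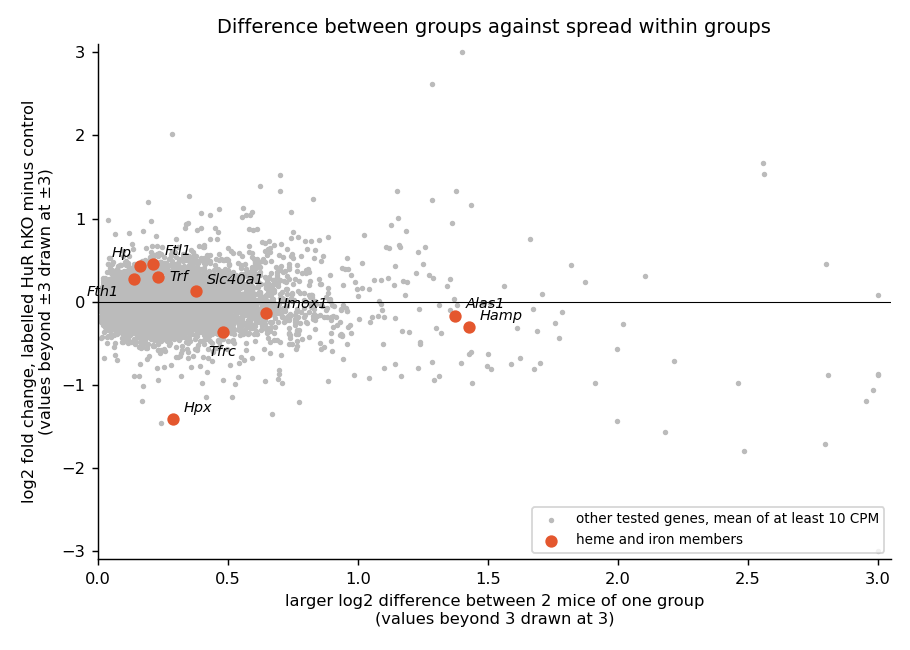
Log2 fold change between groups (y axis) against the larger log2 difference between the 2 mice of a group (x axis) for the tested genes with a mean of at least 10 CPM (grey) and the 10 genes (orange); values beyond 3 are drawn at 3. Hpx combines a log2 fold change of -1.41 with mice that differed at most 1.22-fold, while Alas1 and Hamp, far to the right, differed 2.59-fold and 2.69-fold within a group.

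The mice of one group were close for some members and far apart for others. For Hpx the control mice differed 1.03-fold and the other pair 1.22-fold, and 88.1% and 22.0% of the 7560 genes differed at least as much. Trf, Fth1, Ftl1 and Hp differed at most 1.17-fold within a group. Slc40a1 differed 1.30-fold between mice 3 and 4, and the genes that differed more than that were the hormone Hamp, the enzymes Hmox1 and Alas1 and the receptor Tfrc.

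Per length of merged exons, the order of mean levels was Trf (3279 CPM per kb), Ftl1 (2952), Hp (1545), Hamp (1163), Hpx (1020), Fth1 (476), Alas1 (149), Slc40a1 (12.1), Hmox1 (7.27) and Tfrc (2.27 CPM per kb). Over the 4 livers the values of Trf and Ftl1 overlapped, as did those of Hp, Hamp and Hpx, and those of Hpx and Fth1, so the order within these sets is not clear beyond the spread. In control livers Hpx stood at 1503 and 1464 CPM per kb and Hp at 1366 and 1271, but their order turned with the length used. With the longest transcript of each gene the control mean was 1484 CPM per kb for Hpx and 1575 CPM per kb for Hp. In the livers labelled HuR hKO it stood at 612 and 501 CPM per kb, near Fth1 at 502 and 538. From Fth1 down, each gene stood clear of the next in all 4 livers. With the length of the principal transcript in place of merged exons, Hpx and Fth1 changed places.

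HuR binds AU-rich stretches in 3′ UTRs, so the 3′ UTRs of the 10 mRNAs were read for the pentamer AUUUA and the heptamer UUUAUUU. The 3′ UTR of Hpx has 72 bases and holds 0 copies of either. It is short, since 3.24% of genes have one of at most that length and the median is 1006 bases. Of 255 genes with a 3′ UTR within 25% of that length, 7.06% hold an AUUUA. Tfrc has the longest, with 2461 bases, 5 AUUUA and 3 UUUAUUU, followed by Slc40a1 with 1341 bases and 2 AUUUA. Hmox1 (573 bases) and Hamp (112 bases) hold 1 AUUUA each, Hamp also 1 UUUAUUU, and Hp, Trf, Fth1, Ftl1 and Alas1 hold 0 AUUUA. Over all tested genes with a 3′ UTR, 66.5% hold an AUUUA, but the share depends on length. Among genes with a 3′ UTR within 25% of the same length it is 22.3% for Hp, 32.1% for Trf and 23.2% for Fth1. For Ftl1 it is 24.1%, for Alas1 55.2%, for Tfrc 93.5%, for Slc40a1 80.8%, for Hmox1 54.8% and for Hamp 19.0%. These are counts of letters, not of bound sites.

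RefSeq promoter windows (GRCm38.p6, 250 bases before to 50 after a start) matched 6 of the 10 genes. The windows of Hpx and Hamp are shown because Hpx differed most between the groups and Hamp most between mice of 1 group, and both encode liver products known to respond to inflammation. The Hpx line holds the 250 bases before the start (chr7:105600117-105600366, minus strand), with a C/EBP match TTGCNNAA and, on the opposite strand, a match to the antioxidant response core TGACNNNGC in capitals. The Hamp line holds 60 bases (chr7:30944095-30944154, minus strand), with the bone morphogenetic protein response core GGCGCC and the STAT match TTCNNNGAA in capitals.
Hpx upstream: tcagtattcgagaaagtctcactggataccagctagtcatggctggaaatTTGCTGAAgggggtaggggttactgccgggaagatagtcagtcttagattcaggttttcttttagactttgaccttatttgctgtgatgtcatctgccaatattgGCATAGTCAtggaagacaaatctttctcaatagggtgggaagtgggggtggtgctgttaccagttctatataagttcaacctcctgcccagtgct
Hamp upstream: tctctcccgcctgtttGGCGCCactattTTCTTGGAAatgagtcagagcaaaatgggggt

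Both strands were searched, and the matches in the 2 lines do not overlap each other. In Hpx they begin at base -200 (C/EBP) and base -95 (antioxidant core), and in Hamp at base -109 (GGCGCC) and base -97 (STAT). Positions count from the RefSeq start. For Hpx that start lies inside the GENCODE gene given above, so the last bases of its line fall within that gene. Of 32851 promoter windows, 10.8% hold TTGCNNAA, 12.4% TGACNNNGC, 11.9% GGCGCC and 8.30% TTCNNNGAA, so each is common. Nothing measured here bears on binding to these bases.

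The wider pathway was read from a list of 81 other genes in 7 roles, of which 78 were tested. Their fitted levels were higher in 38 and lower in 40, with a median log2 fold change of -0.0023. No gene of the list passed an adjusted p-value of 0.05 in the tests of edgeR, DESeq2 or limma-voom, and 4 did so unadjusted in edgeR's test, 3 higher and 1 lower (5.13% of the list, beside 7.43% of all genes). That count depended on the control mice. It was 9 of 78 without mouse 1, when 908 of 13512 genes passed, and 11 of 78 without mouse 2, when 1449 of 13572 passed, so the share of the list was then above that of all genes. In 30 of the 78 the groups did not overlap, 16 higher and 14 lower, a share near the 38.1% of all genes. The 1.8-fold threshold took 1 gene, which was higher, beside 1.21% of all genes higher and 2.12% in either direction.

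That gene was Flvcr2, a membrane transporter described for heme and choline. It stood at 1.96 and 2.54 CPM in mice 1 and 2 and at 4.67 and 5.57 CPM in mice 3 and 4, from 26 to 105 counts. Both livers labelled HuR hKO were above both controls, with a log2 fold change of 1.19 (SE 0.29) and an adjusted p-value of 0.351 in edgeR's test. The other 14 genes of heme breakdown and transport held 0 calls, and 11 of the 15 were fitted higher. Ambp, which encodes the plasma heme binder alpha-1-microglobulin, had a log2 fold change of 0.22 (SE 0.17) from 2435 and 2200 CPM to 2813 and 2567 CPM, and Pgrmc1, a heme-binding membrane protein, one of 0.02 (SE 0.15).

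Among 12 genes of heme synthesis, 6 were fitted higher and 6 lower. Alad, the second enzyme of the pathway, had a log2 fold change of 0.16 (SE 0.16), and Cpox, a later enzyme, one of -0.17 (SE 0.14). Alas2, the erythroid form of the first enzyme, was the 1 gene of the group past an unadjusted p-value of 0.05 in edgeR's test, with 118 and 128 CPM in mice 1 and 2, 154 and 176 CPM in mice 3 and 4, a log2 fold change of 0.43 (SE 0.14) and an adjusted p-value of 0.526. The erythroid markers, of which Alas2 is one, were higher too. Of 9 markers 6 were tested and all 6 were fitted higher, 4 of them at an unadjusted p-value under 0.05 in edgeR's test, beside 50.3% of all genes fitted higher and 4.04% past that p-value as higher. Their sum was 367 and 455 CPM in mice 1 and 2 and 494 and 719 CPM in mice 3 and 4. Their part in the level of Alas2 was not tested.

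Iron uptake showed 4 of 9 tested genes fitted higher and 5 lower, with 0 past an unadjusted p-value of 0.05 in edgeR's test. Tfr2, the hepatocyte sensor of iron-loaded transferrin, stood at 446 and 437 CPM in mice 1 and 2 and at 364 and 365 CPM in mice 3 and 4, a log2 fold change of -0.28 (SE 0.13). Slc39a14, an importer of iron not bound to transferrin, ranged from 146 to 214 CPM with overlapping groups. In iron storage and export, 1 of 5 tested genes was fitted higher and 4 lower, among them Cp, the ferroxidase ceruloplasmin, at -0.16 (SE 0.15), while Pcbp1, an iron chaperone for ferritin, stood at 0.06 (SE 0.13). The group holds too few genes for its count to be read.

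Of 22 tested genes listed for the control of hepcidin, which include Hamp2, the close copy of Hamp, 8 were fitted higher and 14 lower. Tmprss6, a protease that holds hepcidin down, had a log2 fold change of -0.09 (SE 0.14), and Il6st, the shared receptor chain of interleukin 6, one of -0.04 (SE 0.14). Hamp2 was at 0.80 (SE 0.30), and how reads were divided between it and Hamp is not shown. Neo1, a co-receptor in this pathway, was at -0.40 (SE 0.17). Both passed an unadjusted p-value of 0.05 but not an adjusted one in edgeR's test. The iron sensors differed little, with Aco1, which encodes an iron regulatory protein, at 0.01 (SE 0.13) and Epas1, an oxygen and iron dependent transcription factor, at -0.06 (SE 0.14). Of 11 genes of mitochondrial iron, 6 were fitted higher and 5 lower, with Hspa9, a chaperone for iron-sulfur cluster assembly, at 0.09 (SE 0.14) and Glrx5, a glutaredoxin of that assembly, at 0.36 (SE 0.20).

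**Figure D4:**
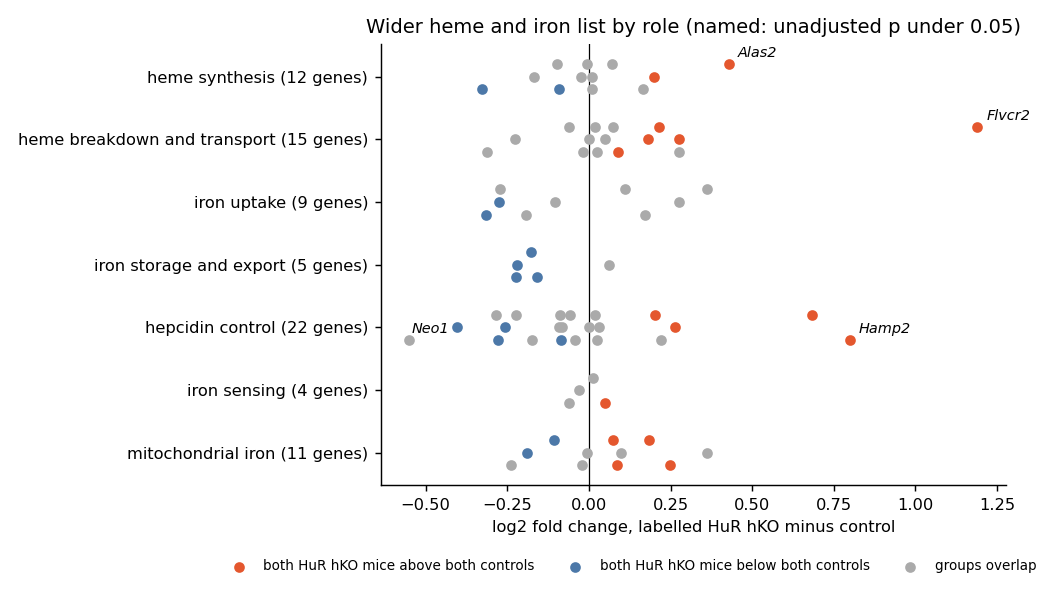
Log2 fold change (x axis, labelled HuR hKO minus control) of the 78 tested genes of the wider list, 1 point a gene, by role (y axis; the vertical scatter within a role has no meaning), coloured by whether the 2 groups of mice overlap. Points lie on both sides of 0 in every role, Flvcr2 has the highest value (1.19), and the 4 named genes are those with an unadjusted p-value under 0.05.

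Cells other than hepatocytes also use these genes. Kupffer cells, the liver macrophages that clear red cells and are rich in Hmox1 and Slc40a1, were read by 10 markers, all tested. Of these, 7 were fitted higher (50.3% of all genes were) and 3 lower, with log2 fold changes from -0.92 to 0.39. Their sum was 255 and 260 CPM in control and 290 and 274 CPM in livers labelled HuR hKO. The 6 neutrophil markers summed to at most 1.12 CPM in a library, with Ly6g at 0 in all 4. The sums of endothelial markers (177 to 205 CPM in control, 209 to 234 CPM in livers labelled HuR hKO) and stellate markers (185 to 188 CPM and 201 to 255 CPM) were also higher. The part of these cells in the members' levels was not tested.

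Further lists hold genes known to respond to the same signals as Hp, Hpx, Hamp and Hmox1. Of 20 other acute phase genes 10 were fitted higher and 10 lower, and 5 passed the 1.8-fold threshold, all higher (Saa1, Saa2, Saa3, Lcn2 and Mt2), beside 1.21% of all genes higher and 2.12% in either direction. The sum of the list overlapped between groups, at 11830 and 10623 CPM in control and 11256 and 10993 CPM in livers labelled HuR hKO. Of 7 tested targets of the stress factor NRF2, 4 were fitted higher (50.3% of all genes were) and 1 passed the threshold, Gsta1, higher (1.21% of all genes did). Whether either list moved with a member was not tested.

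**Figure D5:**
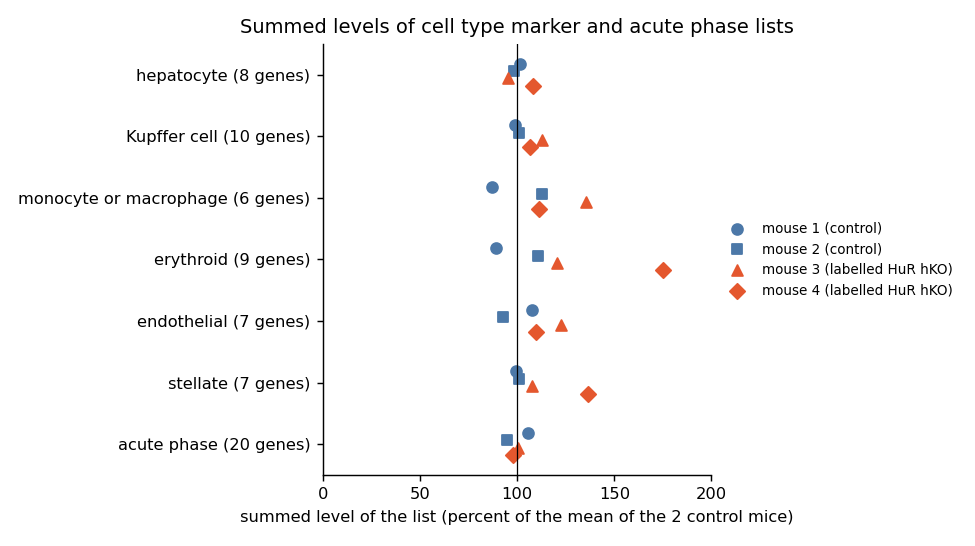
Summed level of each list of marker genes in each mouse (x axis, percent of the mean of the 2 control mice; y axis, list and its number of genes). Mice 3 and 4 stand at 120% and 175% for the erythroid list and at 113% and 106% for the Kupffer cell list, and the acute phase sums lie between 94.6% and 105%.

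The genes whose levels over the 4 livers were most like those of Hpx were found by the root mean square difference of centred log2 CPM among 8170 genes with a mean log2 CPM of at least 3. They were Tmem250-ps (0.04), Tnpo2 (0.14), Mreg (0.16), Slc41a2 (0.17) and Ugt2b38 (0.19). Tmem250-ps stood at 76.6 and 78.2 CPM in mice 1 and 2 and at 30.4 and 25.7 CPM in mice 3 and 4, a log2 fold change of -1.47 beside the -1.41 of Hpx. With 4 livers many genes come close to any pattern, and 0 of these 5 were among the first 5 by Pearson correlation. For Hmox1 the nearest were Bet1l, Pigp and Psmb8, for Hamp an unnamed gene (ENSMUSG00000106857), Pparg and Serpina7, and for Tfrc Nutf2, Gm4951 and Amn1.

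The tested genes beside Hpx on chromosome 7, 3 on each side, were looked at after its value was known. Trim3, which lies 4326 bases away, had a log2 fold change of -0.08 (SE 0.18) and Smpd1, on the other side, one of -0.0045. The 6 neighbours ranged from -0.08 to 0.63, the highest being Cavin3 at 0.52 to 1.81 CPM, and 0 of them passed the 1.8-fold threshold.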

How the data were processed

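The authors counted RNA-seq reads on genes and deposited whole-number counts without normalization, 1 column a mouse. The submitters' notes name RSEM and GRCm38, without saying how RSEM was used, and the handling of strand and of reads that match several genes is not given in the sources used here. Of 46603 identifiers, 46005 had a symbol (Hjv is listed as Hfe2), and coordinates came from GENCODE M21.

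Counts were scaled by TMM and tested with edgeR 4.0.16 (R 4.3.3) by the quasi-likelihood test after its filter (minimum of 10 counts, total of at least 15), with Benjamini-Hochberg adjustment over 13001 genes. Standard errors were derived from the fitted log2 fold change and the statistic of the quasi-likelihood test. For Alas1 and Hamp they were 0.39 and 0.38, against 0.70 for each with DESeq2, so they may understate the spread of such genes. For Trf the value was 0.20, against 0.16 with DESeq2, and for Hpx it was 0.17 against 0.16. The p-values rest on the spread between these mice only, with the spread of each gene estimated partly from the other genes. Intervals from counts cover counting error only. A count of 0 allows up to 3 counts, or 0.152 to 0.23 CPM. Alternatives used DESeq2 1.42.0 and limma 3.58.1.

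The members and lists were chosen with earlier results of these data known. Named genes were the members, Elavl1, in each role the 2 with the highest mean CPM and any past a threshold, those most like Hpx, Hmox1, Hamp and Tfrc, and copies of a member. Others were chosen after their values were seen.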

Additional observations from a re-analysis of the deposited data

How the results depend on the processing

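No paired analysis was possible because the mice are numbered 1 to 4 and the groups share no replicate number. Hpx stayed lower under all 13 alternatives, with a log2 fold change of -1.12 without scaling for library size and -1.58 to -1.28 when 1 mouse was left out, where the lone mouse of a group was assumed to vary like the others. Whether Hpx passed an adjusted p-value of 0.05 depended on the setting, and nothing is read from this, since Hpx was chosen on this contrast. Without scaling, the median of all genes moved to 0.31, and Hmox1 (0.18) and Alas1 (0.11) turned higher. Then 74 of 78 listed genes were higher, 2 passed after adjustment (Flvcr2, Hamp2) and 3 passed the 1.8-fold threshold (Bmp6 added), 510 genes were past it higher and 61 lower against 157 and 119. With TMM 3 genes of the whole table passed after adjustment, against 155 without scaling, 8 with total count only, 161 without a filter, 85 with DESeq2, 8 with the robust fit and 0 (without mouse 3) to 73 (without mouse 2) with a mouse left out. The 1.8-fold threshold took 276 genes, 571 without scaling, 526 without a filter and 262 to 506 with a mouse left out. Of the wider list, after adjustment 1 gene passed without a filter (Flvcr2) and 0 to 1 with a mouse left out (Hamp2, without mouse 2), and limma-voom put 2 past the 1.8-fold threshold, against 2 to 4 with a mouse left out. Values without scaling keep the differences in library size. Mouse 4 had the largest library, with 19715577 counts against 13032095, 13615761 and 13806773 in mice 1 to 3. The cause of the shifts in the other settings was not tested. Members with a higher fitted level numbered 4 to 7. Tfrc and Hmox1 rest on the fewest counts, and 2 mice a group limit every value.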
